A study of Mus musculus with 6 samples.

Results

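The 8 genes Nt5e, Entpd1, Adora2a, Ada, Adk, Pnp, Slc29a1 and Dpp4 were examined, out of 55487 genes listed in each of 6 RNA-seq tables of mouse CD8+ T cells. They were matched by gene symbol, and each symbol gave 1 row. The genes were chosen by their roles in making, sensing and removing adenosine, around Nt5e, whose difference between the groups was already known to be among the largest in these libraries. The itaconate-against-control values of all 8 are therefore given as a description, with no test, and nothing is supported with them. All 8 passed the filter on low counts, which kept 12350 genes.

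The cells came from C57BL/6 mice and spent 48 h with 5 mM itaconate, a metabolite of activated macrophages, or with NaCl, which served as control. There were 3 libraries of CD8+ T cells per group, and no genetic change is named for either group. The labels do not give how the cells were purified or stimulated, nor the mouse or culture behind each replicate. All p-values thus rest on the spread among libraries, and this spread may be technical. Expected counts summed to between 18280217 and 31643408 per library, and no 2 libraries of a group looked like copies of each other.

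Extracellular ATP is a danger signal that cells release when stressed, and enzymes on the cell surface turn it into adenosine. CD39, encoded by Entpd1, removes phosphates from ATP and ADP to leave AMP, and CD73, encoded by Nt5e, removes the last phosphate to leave adenosine. Adenosine binds the receptor encoded by Adora2a, which raises cyclic AMP in T cells and restrains their activation. It is cleared by uptake through the transporter ENT1 (Slc29a1), by phosphorylation to AMP (adenosine kinase, Adk) or by deamination to inosine (adenosine deaminase, Ada), and inosine is then split by purine nucleoside phosphorylase (Pnp). Dpp4 encodes CD26, a surface peptidase that in humans holds adenosine deaminase at the cell surface.

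Of these genes, those of the producing enzyme CD73 and of adenosine deaminase stood higher with itaconate, and those of the adenosine receptor and of purine nucleoside phosphorylase stood lower. Nt5e was 2.19-fold higher and Ada 1.34-fold higher, while Adora2a was 1.39-fold lower and Pnp 1.19-fold lower. Adk, Slc29a1 and Dpp4 lay within a log2 fold change of 0.11 of no difference on the count scale. Entpd1 was 1.88-fold higher, at a low level and with a wide error. In the fit of all genes, 4 of the 8 had a Benjamini-Hochberg adjusted p under 0.05, against a background of 12% of all tested genes (6.68% higher and 5.36% lower with itaconate). Nothing is read from that count, since the members were chosen with this contrast known.

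The start-site regions of Nt5e, Ada and Entpd1 are shown because these are the members that stood higher with itaconate in CPM without overlap. Each window runs from 250 bases before the RefSeq start to 50 after it in the mouse build GRCm38.p6. Windows were found for 7 of the 8 genes. The Nt5e window is chr9:88327359-88327658 on the plus strand, and the Ada window is chr2:163750190-163750489 on the minus strand. Entpd1 has 2 start sites in the table, with windows at chr19:40612116-40612415 and chr19:40659520-40659819 on the plus strand. Capitals mark matches, on either strand, to the GC box GGGCGG bound by SP1-type factors, to the letters GTCTG of the SMAD element and to TGACG, a half-site for cyclic AMP response factors.
Nt5e: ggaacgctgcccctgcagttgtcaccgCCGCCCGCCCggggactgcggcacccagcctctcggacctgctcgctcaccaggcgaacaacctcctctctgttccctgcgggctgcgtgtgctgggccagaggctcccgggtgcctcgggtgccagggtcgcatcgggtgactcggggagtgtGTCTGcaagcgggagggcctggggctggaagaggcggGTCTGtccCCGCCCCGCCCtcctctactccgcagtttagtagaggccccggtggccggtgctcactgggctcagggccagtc
Ada: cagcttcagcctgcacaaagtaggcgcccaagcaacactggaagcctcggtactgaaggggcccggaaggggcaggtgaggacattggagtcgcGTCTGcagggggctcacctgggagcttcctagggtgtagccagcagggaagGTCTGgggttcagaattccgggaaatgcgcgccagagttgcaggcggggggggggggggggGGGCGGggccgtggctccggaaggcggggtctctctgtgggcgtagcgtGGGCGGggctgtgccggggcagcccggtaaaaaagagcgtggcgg
Entpd1, upstream start: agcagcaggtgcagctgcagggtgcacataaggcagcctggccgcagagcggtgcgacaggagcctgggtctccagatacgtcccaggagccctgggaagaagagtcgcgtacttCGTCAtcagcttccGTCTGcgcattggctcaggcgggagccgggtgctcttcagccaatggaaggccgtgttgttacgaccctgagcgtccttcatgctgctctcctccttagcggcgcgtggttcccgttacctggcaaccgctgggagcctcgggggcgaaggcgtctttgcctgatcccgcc
Entpd1, downstream start: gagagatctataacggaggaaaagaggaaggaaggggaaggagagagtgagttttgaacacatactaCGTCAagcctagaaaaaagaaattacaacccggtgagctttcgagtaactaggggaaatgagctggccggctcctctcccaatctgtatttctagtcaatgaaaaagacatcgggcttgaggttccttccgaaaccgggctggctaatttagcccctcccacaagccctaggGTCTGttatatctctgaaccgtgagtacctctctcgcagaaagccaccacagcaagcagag

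The share of G and C was 71% for Nt5e, 68% for Ada, and 64% and 48.7% for the upstream and downstream windows of Entpd1. The Nt5e window held 4 matches to the GC box, lying in 2 overlapping pairs, and 2 to the SMAD letters. The Ada window held 2 of each. Neither held TGACG. The windows of Entpd1 differed from these: each held 1 match to the SMAD letters and 1 to TGACG, and no GC box. A GC box was present in 35.7%, the SMAD letters in 49.6% and TGACG in 20.8% of 32851 start-site windows of the same length. No match was found in any of the 4 windows to ACGTG (the core of the hypoxia response element), CACGTG (the E-box, which contains the hypoxia core), TGACNNNGC (the antioxidant response element) or TATAAA (the TATA box). These were present in 19.6%, 7.15%, 12.4% and 13.6% of all windows. The same letters lay in windows of members that did not stand higher in CPM. Each of the Adk windows held 4 matches to the GC box and none to the SMAD letters. TGACG was not particular to Entpd1: the upstream Adk window held 1 match, and so did a Slc29a1 window (chr17:45593600-45593899). The Slc29a1 windows held from 0 to 5 matches to the GC box and from 0 to 3 to the SMAD letters. The Dpp4 window held 2 matches to the SMAD letters and no GC box, and the Pnp window held 1 of each. The matches are letters only, with no measurement of binding.

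Adenosine production was represented by Nt5e and Entpd1. Nt5e (ENSMUSG00000032420) lies on chromosome 9 at 88327197 to 88372092 in GRCm38 and is a protein-coding gene with 4 transcripts in the files. Its level, as library-scaled read counts (CPM), was 6.79, 8.26 and 7.78 across the control libraries in replicate order. With itaconate it was 15.5, 16.4 and 17.9. All 3 itaconate libraries were above all 3 control libraries, and the lowest itaconate value stood well clear of the highest control value. The fitted log2 fold change was 1.13 ± 0.11 (SE), from a mean of 7.61 ± 0.75 CPM in control to 16.6 ± 1.2 CPM with itaconate (SD, n = 3). It rested on 171 to 245 reads per control library and 295 to 418 per itaconate library. Per length, in length-scaled transcript abundance (TPM), Nt5e was at 2.32, 2.79 and 2.51 in control and at 5.09, 5.09 and 5.69 with itaconate, so the separation was also present on that scale. In bulk RNA, more cells carrying a transcript and more transcript per cell cannot be told apart.

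Entpd1, on chromosome 19 at 40612366 to 40741602, was the least abundant of the 8. Its CPM was 1.11, 1.11 and 1.65 in control and 3.41, 1.89 and 2.06 with itaconate, from 23 to 69 reads per library. The groups did not overlap in CPM, though the highest control library and the second itaconate library were close. In TPM they did overlap, at 0.68, 0.62 and 0.99 in control and 1.94, 0.87 and 0.90 with itaconate. The log2 fold change of 0.91 ± 0.31 was 0.60 without itaconate replicate 1, the highest library.

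The ratio of Nt5e to Entpd1 TPM was 3.41, 4.50 and 2.54 in control and 2.62, 5.85 and 6.32 with itaconate. The groups overlapped, with itaconate replicate 1 near the lowest control library. CD73 transcript was thus the more abundant of the pair in each of the 6 libraries.

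**Figure D1:**
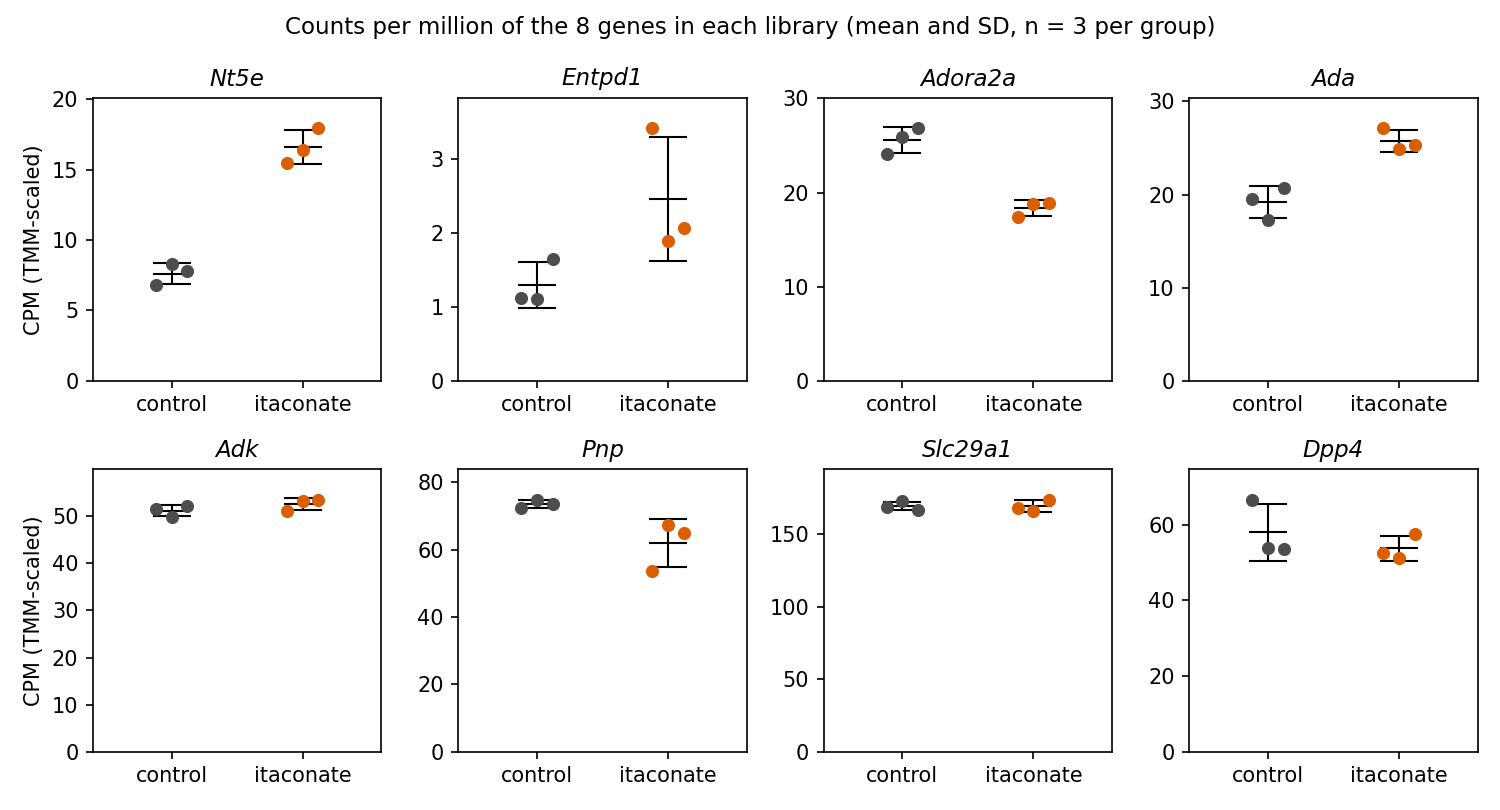
CPM (vertical axis of each panel, starting at 0) of the 8 genes in the 3 control libraries (grey) and 3 itaconate libraries (orange), with the mean and SD of each group in black. Nt5e (means 7.61 and 16.6 CPM) and Ada (19.2 and 25.8 CPM) stand higher and Adora2a (25.6 and 18.4 CPM) stands lower with itaconate without overlap, while the groups overlap for Adk, Slc29a1 and Dpp4.

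Adenosine sensing was represented by Adora2a, on chromosome 10 at 75316877 to 75334784. Adora2a was at 24.1, 25.9 and 26.8 CPM in control and at 17.4, 18.8 and 18.9 CPM with itaconate. Every itaconate library was below every control library, and the spread within each group was small beside the distance between them. The log2 fold change was -0.48 ± 0.083, from 25.6 ± 1.4 to 18.4 ± 0.82 CPM. In TPM the control libraries were at 15.4, 15.4 and 15.9 and the itaconate libraries at 9.12, 12.3 and 9.51. Itaconate replicate 2 stood nearer to control on that scale. The effective length of Adora2a, which the authors' program averages over isoforms, was 1789 bases in that library against 2360 and 2357 in the other itaconate libraries and 1977 to 2135 in control. The direction was the same under all 16 alternative analyses of the same libraries, with log2 fold changes from -0.60 to -0.44.

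The other adenosine receptors were scarce. Adora2b, the lower-affinity receptor that also raises cyclic AMP, was at 0.733 ± 0.28 CPM in control and 1.24 ± 0.90 CPM with itaconate (SD, n = 3) and did not pass the test (log2 fold change 0.70 ± 0.49, edgeR adjusted p 0.407). Its highest library was itaconate replicate 2, at 2.28 CPM, and without it the log2 fold change was -0.03. Adora1 and Adora3, the receptors that lower cyclic AMP, had at most 8 reads in any library and were not tested. Per length, Adora2b stood at 0.567 ± 0.21 TPM in control and 0.913 ± 0.64 TPM with itaconate, below Adora2a at 15.6 ± 0.27 and 10.3 ± 1.7 TPM.

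Removal of adenosine was represented by Ada, Adk, Pnp and Slc29a1. Ada, on chromosome 2 at 163726584 to 163750239, was at 19.5, 17.3 and 20.7 CPM in control and at 27.1, 24.9 and 25.3 CPM with itaconate. The groups did not overlap, and the log2 fold change was 0.42 ± 0.088, from 19.2 ± 1.7 to 25.8 ± 1.2 CPM. The effective length of Ada was 1429 to 1459 bases across the libraries, and its TPM also separated the groups, at 17.3, 15.1 and 17.3 in control and 23.1, 20.0 and 21.02 with itaconate.

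Adk, on chromosome 14 at 21052574 to 21448569, gave a different answer on the 2 scales. Its CPM was 51.4, 49.9 and 52.2 in control and 51.1, 53.2 and 53.5 with itaconate, so the groups overlapped and the log2 fold change was 0.04 ± 0.058. Its TPM was 74.8, 57.6 and 65.8 in control and 57.0, 55.6 and 53.0 with itaconate. Every itaconate library was below every control library, but control replicate 2 and itaconate replicate 1 nearly met. The effective length of Adk was 871, 1101 and 961 bases in control and 1108, 1120 and 1198 bases with itaconate, longer in every itaconate library than in any control library. When effective length was modelled in the count fit, the log2 fold change of Adk was -0.20. The files give no level per isoform, and which of the 10 Adk transcripts in them took the reads was not tested.

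The ratio of Ada to Adk TPM, which sets the deaminating against the phosphorylating enzyme, was 0.231, 0.262 and 0.263 in control and 0.405, 0.359 and 0.396 with itaconate. The groups did not overlap. Adk transcript was the more abundant in every library. In TPM the groups stood apart for both terms, Ada upward and Adk downward, whereas in CPM they overlapped for Adk.

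Pnp, on chromosome 14 at 50931082 to 50965237, was at 72.4, 74.9 and 73.6 CPM in control and at 53.7, 67.2 and 64.9 CPM with itaconate. The control libraries were close together, and itaconate replicate 1 was the lowest. The log2 fold change of -0.25 ± 0.074 became -0.16 without that library. Pnp shares reads with neighbours on the same chromosome: 18.9% of its 50-base windows occur in transcripts of other genes, mainly Gm49342, which overlaps its exons, and Pnp2, a close relative. An antisense gene, Gm38316, also overlaps its exons. Its level is therefore uncertain where the authors' program divided such reads. Pnp2 was at 0.699 ± 0.11 and 0.730 ± 0.24 CPM and did not pass (edgeR adjusted p 0.957). Gm49342, looked at after its overlap was seen, was at 20.2, 20.6 and 20.3 CPM in control and at 20.8, 14.6 and 14.7 CPM with itaconate. Summed over Pnp, Pnp2 and Gm49342, which does not depend on how reads were divided between them, the levels were 93.5, 96.1 and 94.5 CPM in control and 75.5, 82.6 and 80.1 CPM with itaconate. The groups did not overlap in the sum.

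Slc29a1, on chromosome 17 at 45585200 to 45599606, was at 168, 173 and 167 CPM in control and at 168, 166 and 174 CPM with itaconate. The groups overlapped, and the means of 169 ± 3.1 and 169 ± 4.0 CPM differed by less than their SD (log2 fold change 0.00 ± 0.045). Dpp4, on chromosome 2 at 62330073 to 62412231, was at 66.6, 53.7 and 53.5 CPM in control and at 52.5, 51.1 and 57.5 CPM with itaconate. Control replicate 1 stood above the rest, the groups overlapped, and the log2 fold change was -0.11 ± 0.087 with it and 0.00 without it. Exons of both genes overlap an antisense gene (Gm17080 and Gm13561), and the strand setting of the counting is not given in the sources used here. Fewer than 1% of the 50-base windows of each member other than Pnp were shared with transcripts of another gene.

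**Figure D2:**
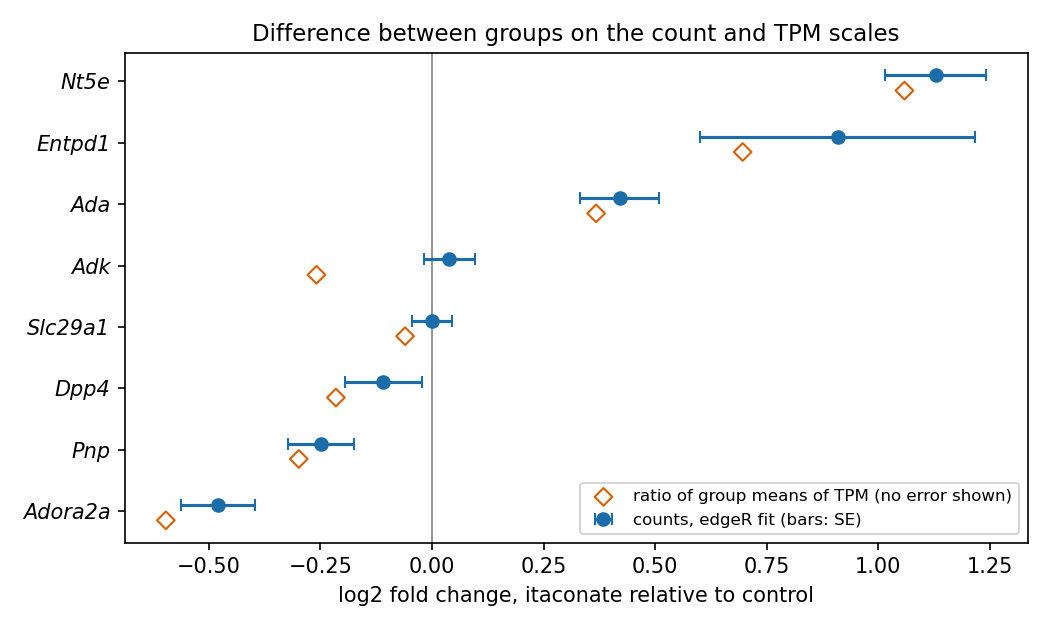
Log2 fold change of each gene, itaconate relative to control (horizontal axis), from the fit of counts (blue circles, bars are SE) and from the ratio of group means of TPM (open orange diamonds, no error shown). The scales give the same direction for Nt5e, Entpd1, Ada, Dpp4, Pnp and Adora2a, and part for Adk, at 0.04 on counts and a TPM ratio of 0.836. Slc29a1 is at 0.00 on counts, with a TPM ratio of 0.959.

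Compared per length, in TPM, the 8 transcripts covered a wide range. In control the order was Slc29a1 (141 ± 6.3 TPM), Pnp (70.5 ± 2.3), Adk (66.0 ± 8.6), Ada (16.6 ± 1.3), Dpp4 (15.9 ± 2.7), Adora2a (15.6 ± 0.27), Nt5e (2.54 ± 0.24) and Entpd1 (0.763 ± 0.20). Pnp and Adk overlapped, and so did Ada with Dpp4 and Dpp4 with Adora2a. With itaconate the order of the genes was the same, but Ada (21.4 ± 1.6 TPM), Dpp4 (13.7 ± 0.83) and Adora2a (10.3 ± 1.7) no longer overlapped with each other, and Nt5e had moved to 5.29 ± 0.35 TPM. Slc29a1, Pnp, Adk and Ada, the genes of uptake and breakdown, had the 4 highest means in both groups, and Nt5e and Entpd1 the lowest. In control Ada overlapped with Dpp4.

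**Figure D3:**
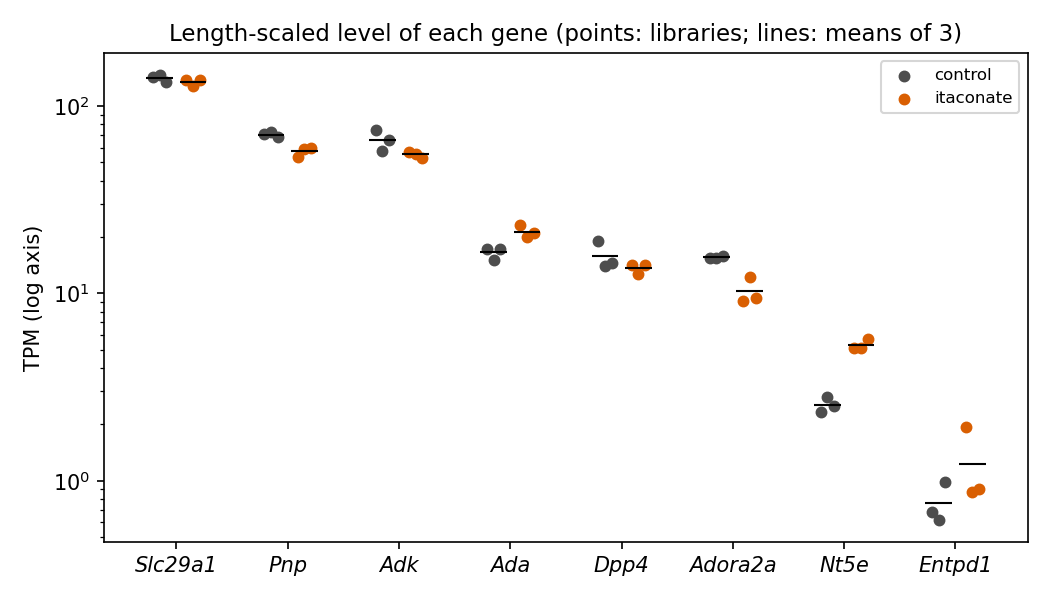
TPM of the 8 genes (log axis) in control libraries (grey) and itaconate libraries (orange), ordered by the control mean, with a line at each mean of 3 libraries. Slc29a1 is the highest (141 TPM in control) and Entpd1 the lowest (0.763 TPM), and the control libraries of Ada, Dpp4 and Adora2a lie together while the itaconate libraries of these genes lie apart.

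Genes with related roles were read from 9 lists. Outside the 8 members these held 117 genes, of which 88 were tested, 7 rose, 9 fell and 72 did not pass, so that 18.2% passed against 12% of all tested genes. Their median log2 fold change was 0.02, and that of all tested genes was 0.01. Of the 16 genes that passed, 7 kept an edgeR adjusted p under 0.05 without any 1 library and 9 lost it without at least 1. On log2(TPM + 1) the number that passed was 2, Nr4a1 and Junb. With effective length offsets it was 5: Acpp, Xdh, Gnai2, Nr4a1 and Junb. With DESeq2 it was 11, and Alpl, Xdh, Itpa, Pde4b and Rgs2 did not pass.

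Among 5 other tested surface enzymes that act on nucleotides or NAD, 2 rose, 3 did not pass and none fell, with a median log2 fold change of 0.58. The share that passed was 40%, against 12% of all tested genes, and 1 of the 2 risers kept its call without any 1 library. Acpp, an acid phosphatase that can also make adenosine from AMP at the cell surface, was at 1.63, 1.40 and 1.21 CPM in control and at 3.22, 3.27 and 3.26 CPM with itaconate, without overlap. It rose by a log2 fold change of 1.20 ± 0.24 (edgeR adjusted p 0.00496) and kept its call without any 1 library. Alpl, the tissue-nonspecific alkaline phosphatase, which removes phosphates from nucleotides, rose from 1.97 ± 0.23 to 3.38 ± 0.48 CPM (0.77 ± 0.23, edgeR adjusted p 0.0391). That call was lost without any 1 of the 6 libraries (adjusted p 0.0560 to 0.145) and with DESeq2 (adjusted p 0.0778). Cd38, which consumes NAD and can feed AMP to CD73, was at 2.88 ± 0.53 and 4.36 ± 0.88 CPM (0.58 ± 0.21, adjusted p 0.0925), and Enpp1, which makes AMP from ATP, was at 7.34 ± 0.64 and 6.93 ± 0.47 CPM (-0.08 ± 0.13, adjusted p 0.753). The remaining gene, Art2b, which modifies surface proteins with ADP-ribose, had a log2 fold change of -0.04 ± 0.18 (adjusted p 0.926).

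Of 3 other tested nucleoside transporters none passed. Slc29a2, a second plasma membrane carrier, was at 15.2 ± 0.98 and 14.3 ± 1.5 CPM (-0.09 ± 0.10 on the log2 scale, edgeR adjusted p 0.640), and Slc29a3, a lysosomal carrier, was at 25.3 ± 0.28 and 24.9 ± 0.83 CPM (-0.02 ± 0.073, adjusted p 0.901). Slc28a2, a sodium-coupled carrier, completed the list. Of 14 genes of adenosine and AMP metabolism inside the cell, 1 rose, Ahcyl2, a relative of the enzyme that frees adenosine from S-adenosylhomocysteine, from 89.8 ± 4.3 to 104 ± 7.4 CPM (0.22 ± 0.061, edgeR adjusted p 0.0345). It lost its call without control replicate 2 or 3 or itaconate replicate 1 or 3 (adjusted p 0.0755 to 0.184). Ahcy, that enzyme itself, was at 499 ± 2.6 and 517 ± 12 CPM (0.05 ± 0.043, adjusted p 0.512), and Ampd3, an AMP deaminase, was at 0.359 ± 0.13 and 0.751 ± 0.23 CPM (1.09 ± 0.47, adjusted p 0.147). Among these 14 genes the share that passed was 7.14%, against 12% of all tested genes.

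Purine salvage and breakdown had 15 tested genes, of which 4 fell, 11 did not pass and none rose, with a median log2 fold change of -0.02. The share that passed was 26.7%, against 12% of all tested genes. Samhd1, which breaks down deoxynucleotides, was at 299, 295 and 268 CPM in control and at 241, 241 and 244 CPM with itaconate (-0.25 ± 0.049, edgeR adjusted p 0.00515). Gmps, which makes GMP, fell from 221 ± 5.0 to 193 ± 2.5 CPM (-0.19 ± 0.044, adjusted p 0.0126), with an adjusted p of 0.0517 when itaconate replicate 2 was left out. Xdh, which turns the hypoxanthine that Pnp releases into uric acid, fell from 11.4 ± 1.2 to 8.45 ± 0.72 CPM (-0.43 ± 0.12, adjusted p 0.0341), and Itpa, which removes inosine triphosphate, fell from 67.4 ± 3.3 to 58.6 ± 2.0 CPM (-0.20 ± 0.060, adjusted p 0.0422). Xdh kept its call only without itaconate replicate 1 and Itpa only without control replicate 1 (adjusted p in the other runs 0.0515 to 0.128 for Xdh and 0.0539 to 0.151 for Itpa). Hprt, the main salvage enzyme for hypoxanthine, was at 258 ± 9.1 and 262 ± 17 CPM (0.02 ± 0.053, adjusted p 0.830). Dpp7, Dpp8, Dpp9, Prep and Prcp, relatives of CD26, did not pass either (0 of 5 tested).

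The receptor encoded by Adora2a raises cyclic AMP, and genes of cyclic AMP and protein kinase A signalling were read as 1 list. Of these, 24 were tested, of which 2 rose, 2 fell and 20 did not pass (median 0.10). The share that passed was 16.7%, against 12% of all tested genes. Gnai2, a G protein subunit that lowers cyclic AMP, was at 355, 355 and 342 CPM in control and at 434, 437 and 419 CPM with itaconate (0.29 ± 0.044, edgeR adjusted p 0.000751). Csk, the kinase that protein kinase A uses to restrain T cell receptor signalling, rose from 363 ± 11 to 421 ± 5.9 CPM (0.21 ± 0.044, adjusted p 0.00666), with an adjusted p of 0.0667 when control replicate 2 was left out. The phosphodiesterases Pde3b and Pde4b, which break down cyclic AMP, fell: Pde3b from 98.0 ± 4.9 to 81.0 ± 1.4 CPM (-0.27 ± 0.055, adjusted p 0.00500) and Pde4b from 17.9 ± 1.5 to 14.1 ± 0.57 CPM (-0.35 ± 0.097, adjusted p 0.0293). Pde3b kept its call without any 1 library, and Pde4b lost it without control replicate 2 or 3 or itaconate replicate 2 or 3 (adjusted p 0.0658 to 0.114).

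Of 13 tested transcripts that respond to cyclic AMP, and in T cells also to the antigen receptor, 2 rose, 3 fell and 8 did not pass (median -0.08). The share that passed was 38.5%, against 12% of all tested genes. The nuclear receptor Nr4a1 was at 211, 235 and 219 CPM in control and at 282, 327 and 289 CPM with itaconate (0.43 ± 0.060, edgeR adjusted p 0.000563), with no overlap. Junb, an AP-1 subunit, fell from 375 ± 27 to 296 ± 25 CPM (-0.35 ± 0.067, adjusted p 0.00634) and Rgs1, which shortens G protein signals, fell from 90.3 ± 8.3 to 67.7 ± 6.1 CPM (-0.42 ± 0.079, adjusted p 0.00539). These 3 kept their calls without any 1 library. Nr4a3, of the same family as Nr4a1, rose (0.23 ± 0.064, adjusted p 0.0360) and kept its call only without control replicate 2 (otherwise adjusted p 0.0510 to 0.141), and Rgs2, of the same family as Rgs1, fell (-0.50 ± 0.15, adjusted p 0.0490) and lost its call without any 1 library (0.0580 to 0.186). Crem, a cyclic AMP response factor, was at 41.4 ± 3.6 and 39.8 ± 3.0 CPM (-0.06 ± 0.079, adjusted p 0.684).

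**Figure D4:**
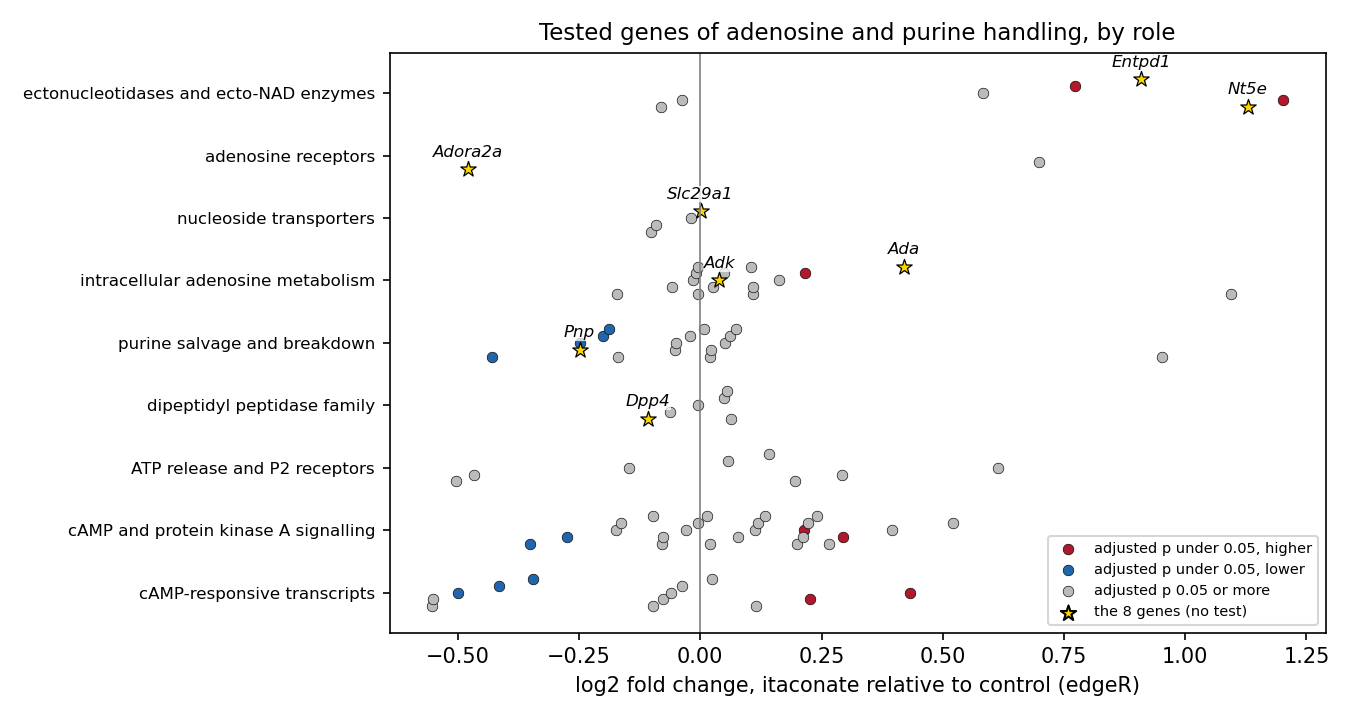
Log2 fold change, itaconate relative to control (horizontal axis), of each tested gene in 9 lists of related roles (rows), coloured by the edgeR result, with the 8 members as stars and with no test. The 2 red points of the surface enzyme row are Acpp (1.20) and Alpl (0.77), next to Entpd1 and Nt5e. The 4 blue points of the salvage row lie below 0 because blue marks genes that fell. The median of that row without Pnp was -0.02.

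Markers of other cells that carry CD73 or CD39 were read beside these values. Of 5 markers of CD4 and regulatory T cells, 1 rose and none fell, and their summed level was 17.2 to 18.1 CPM in control and 31.5 to 34.7 CPM with itaconate. The riser was Foxp3, the transcription factor of regulatory T cells, at 2.60, 1.55 and 1.46 CPM in control and 15.04, 10.99 and 11.2 CPM with itaconate (edgeR adjusted p 1.10e-05). Cd4 was at 2.45, 2.51 and 4.70 CPM in control and 3.36, 1.998 and 5.79 CPM with itaconate, with overlap (adjusted p 0.809). Of 7 B cell markers none passed. Their summed level, mostly from Ighm, was 273 to 294 CPM in control and 296 to 322 CPM with itaconate, without overlap. No marker of these lists was at 0 in all libraries. Of 10 macrophage and dendritic cell markers 4 had enough reads to be tested and none of these passed (all 10 summed to 62.3 to 91.4 and 43.9 to 105 CPM), and Cd14 was at 0 in each control library and in itaconate replicate 1. Cd8a, a defining marker of the labelled cells, was at 526, 472 and 493 CPM in control and 646, 630 and 659 CPM with itaconate (adjusted p 0.000297). Of 6 markers of stroma and endothelium, whose sum was 23.4 to 27.5 CPM in control and 20.8 to 22.5 CPM with itaconate, without overlap, only Pecam1 had enough reads to be tested (edgeR adjusted p 0.0657). Pecam1 made up most of that sum, and Cdh5, a defining endothelial marker, was at 0 in every library. Of 6 markers of NK and gamma-delta T cells 2 were tested and 1 rose (97.7 to 110 and 112 to 141 CPM summed, without overlap). The riser was Eomes, which CD8 T cells also express, at 103 ± 5.9 and 123 ± 14 CPM (edgeR adjusted p 0.0477). Of 8 CD8 T cell markers, all above a mean of 1 CPM, 2 rose, Cd8a and Gzmb, the killing protease granzyme B (edgeR adjusted p 0.0485). These 8 summed to 6098 to 6769 CPM in control and 6926 to 7466 CPM with itaconate, also without overlap. The part of any other cell type in the level of Nt5e or Entpd1 was not tested.

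The genes whose levels ran most like Nt5e were found by Pearson correlation of log2 CPM over the 6 libraries, taking 8049 genes whose mean reached 10 CPM. They were Fntb, a subunit of protein farnesyltransferase (r = 0.997), Grk6, a kinase of G protein-coupled receptors (0.996), March9, a membrane ubiquitin ligase (0.996), Cxcr5, a chemokine receptor (0.996), and Metrn, a secreted protein (0.994). The lowest values were those of Ankzf1 (-0.998), Osbpl9 (-0.997) and St6gal1, a sialyltransferase (-0.995). With 6 libraries in 2 groups, a gene that separates the groups tends to give a large value, and 12.8% of the 8049 genes had a correlation beyond 0.9 in either direction. Cxcr5 was at 8.17, 8.65 and 8.45 CPM in control and at 14.5, 15.1 and 16.2 CPM with itaconate, without overlap. A large correlation did not mean a large change. The log2 fold change was 0.28 for Fntb, 0.18 for Grk6, 0.49 for March9, 0.86 for Cxcr5 and 0.22 for Metrn. It was -0.98 for St6gal1. Ankzf1 (-0.22, edgeR adjusted p 0.0623) and Osbpl9 (-0.12, adjusted p 0.162) did not pass.

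Groups without overlap in CPM were found for 31.2% of the genes tested. Among the 8 members this held for Nt5e, Entpd1, Adora2a, Ada and Pnp, from which nothing is read because the same contrast chose them.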

How the data were processed

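RNA-seq libraries (3 control, 3 itaconate) were read from 1 gene table each. The authors deposited expected counts, which RSEM-style columns define as estimated reads per gene without normalisation. They also deposited TPM, scaled by effective length. Bowtie 0.12.2, mm8 and mm10 appear in the submitters' processing notes with no role. Program version, annotation, strand and trimming: not given in the sources used here.

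Expected counts (5.99% to 6.93% of genes further than 0.001 from a whole number) were rounded. Itaconate was compared with control across all genes with edgeR 4.0.16 in R 4.3.3: TMM factors (0.987 to 1.02), a minimum count of 10 and total of 15, the robust two-sided quasi-likelihood test, and Benjamini-Hochberg adjustment over 12350 genes at 0.05. The script was tested on simulated data. Positions come from GENCODE M21 (GRCm38), which held 99.83% of the identifiers, and start-site windows from RefSeq (GRCm38.p6). Read sharing was checked with 50-base windows of GENCODE transcripts.

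Members, lists and tests were chosen with earlier results of these data known. Named genes outside the members are, per list, all that passed (at most 6), 16 fixed by name, and the 5 highest and 3 lowest correlations with Nt5e (log2 CPM, prior count 2). Gm49342 was added after its overlap was seen. Alternatives were RLE and total-count scaling, DESeq2 1.42.0, limma 3.58.1 (voom, and log2(TPM + 1) or log2(TPM + 0.1)), other filters, effective length offsets, a replicate block and leaving out each library.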

Additional observations from a re-analysis of the deposited data

How the results depend on the processing

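The count of all genes called, 1487, was 308 on log2(TPM + 1), 324 on log2(TPM + 0.1), 567 with effective length offsets and 726 to 1400 without 1 library. The share that was higher, 55.5%, was 39.6% and 38.9% on the TPM scales. The 16 other adenosine and purine genes called became 2 on either TPM scale, 5 with effective length offsets and 9 to 12 without 1 library. With the replicate number as a block (replicate block) the counts were 2419 and 25. Same-numbered libraries deviated together little (correlations 0.113, 0.0305 and 0.00337, thus below 0.1 in 2 of 3 pairs). Control replicates 1 and 2 matched their own number best and control replicate 3 matched itaconate replicate 2 best. Some scarce markers of other cells did follow the replicate number. Cd74 was highest in replicate 3 of both groups, at 58.0 CPM in control and 69.5 CPM with itaconate. Klra8 had 5 reads in each replicate 3 and 0 in every other library. Others did not, such as Col1a1, highest in control replicate 1 and itaconate replicate 2. The labels do not say whether the numbers pair the libraries, and the main fit did not pair them. Nt5e, Entpd1, Adora2a, Ada and Pnp kept their direction in all 16 alternatives, with log2 fold changes of 0.83 to 1.18, 0.32 to 1.13, -0.60 to -0.44, 0.35 to 0.47 and -0.31 to -0.16. The number of members with an adjusted p under 0.05 was 4 in the main fit. It was 1 on either TPM scale, 2 with effective length offsets, 5 with no filter on low counts and 3 or 4 without 1 library. Of all genes tested, 308 or 324 of 12350 were called on the TPM scales and 567 of 12350 with effective length offsets. With no filter 1993 of 21978 were called, and without 1 library 726 to 1400 of 12539 to 12774. Pnp was under 0.05 in 7 of the 16 alternatives. Nothing is read from these member counts or directions. The alternatives refit the same libraries, whose contrast was known when the members were chosen. Adk ran from -0.25 on TPM to 0.06, and Slc29a1 from -0.06 to 0.01, and Dpp4 from -0.20 to 0.00. The cause of these differences was not tested. Entpd1 rested on 23 to 69 reads per library, and Adora2b on 9 to 41.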

Other observations

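Genes for the release of ATP and for the receptors that sense it were read as a further list. Of 14 genes, 8 were tested and none passed with edgeR, 1 of them with an unadjusted p under 0.05. That gene was Panx1, a channel that releases ATP, at 53.0 ± 2.5 CPM in control and 60.5 ± 2.9 CPM with itaconate (SD, n = 3; log2 fold change 0.20 ± 0.062, edgeR adjusted p 0.0539), without overlap between the groups. P2rx7, the ATP-gated channel that can trigger T cell death, was at 1.35 ± 0.30 and 0.970 ± 0.37 CPM (-0.47 ± 0.36, adjusted p 0.455). Panx1 was singled out after its values were seen.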
